A study of Mus musculus with 2 samples.

Results

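The genes described here encode the histones that are made while DNA is copied: the linker histone H1 and the core histones H2A, H2B, H3 and H4, around which DNA is wound in nucleosomes. They lie in clusters, most have no intron, and many copies encode the same protein. Their transcription is known to depend on NPAT at S phase, and their mRNAs are known for ending at a short stem-loop, bound by the protein SLBP, in place of a poly(A) tail. Some members are also known to give longer transcripts that end in a poly(A) tail, which persist outside S phase. Members were chosen by gene symbol, as every row whose name begins with Hist, a cluster number and the letter h, which took 70 of the 49492 rows of the count table.

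The libraries came from basal cells of the mouse mammary gland, the outer, contractile layer of the epithelium, which FACS had sorted (lin-CD24+CD29 hi in the study's methods) from wild-type adult female mice. The cells grew in 3D culture in Matrigel for 10 days, either with recombinant mouse TNF-α at 10 ng/mL or without it as the control. TNF-α is a cytokine made largely by macrophages, and the comparison asks how this culture responds to it. There was 1 library per condition, so no difference below has a replicate check, no p-value is given, and 95% intervals cover counting error only. The deposited counts summed to 53487087 in the TNF-α library and 44462275 in the control library. Levels are counts scaled to library size by TMM (CPM), divided by exon length (RPKM) where genes of different length are compared.

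In both libraries the histone genes had few counts, and the TNF-α library had fewer. The 70 genes together held 4689 counts in the TNF-α library against 6577 in the control library, or 87.9 against 148 CPM. The log2 ratio was -0.75 (95% Clopper-Pearson interval -0.80 to -0.69). Many histone counts were even: 43 of the 52 above 0 in the TNF-α library and 52 of the 59 in the control library, where 62.0% and 61.2% of the counts above 0 in all rows were. Whether both ends of a read pair were counted is not given in the sources used here. With all counts halved, the interval was -0.82 to -0.67. In bulk RNA, fewer cells making histone mRNA and less of it per cell cannot be told apart. The result rested on a small number of genes: the 5 members with at least 100 counts made up 93.8% of the histone counts under control conditions and 92.5% under TNF-α.

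**Figure D1:**
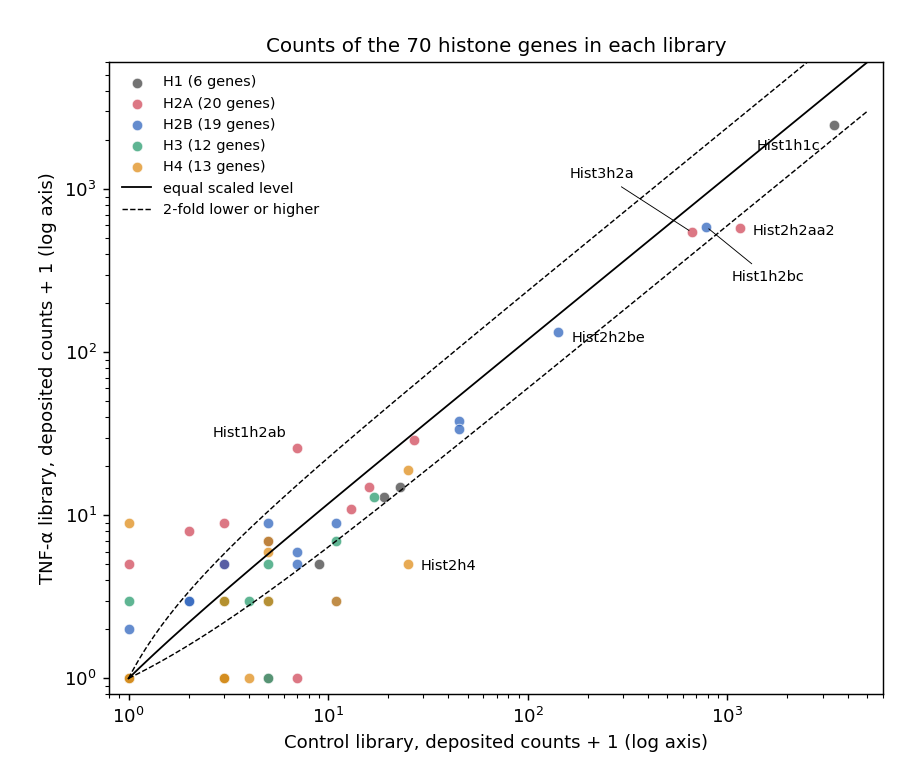
Deposited counts plus 1 of each of the 70 histone genes in the control library (x axis, log scale) and the TNF-α library (y axis, log scale), coloured by histone type; the solid line marks equal TMM-scaled levels and the dashed lines a 2-fold difference. The 5 genes with at least 100 counts lie below the solid line, and Hist2h2aa2, with 578 against 1153 counts, lies below the lower dashed line.

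Hist1h1c, which encodes a linker histone that binds the DNA entering and leaving the nucleosome, was the most counted member. It held 2494 counts in the TNF-α library and 3430 in the control library, or 29.96 against 49.3 RPKM. Its log2 ratio was -0.72 (-0.79 to -0.64). The row is a single exon of 1560 bases at chr13:23738808-23740367 on the plus strand of GRCm38, with the coding sequence at chr13:23738849-23739484. The other 5 H1 genes, which include the testis gene Hist1h1t, held 36 against 52 counts in sum. The H1 sum of 2530 against 3482 counts was therefore nearly all Hist1h1c.

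Among the 9 H2A genes with at least 10 counts, Hist2h2aa2 stood lowest. It held 578 counts in the TNF-α library against 1153 in the control library, 20.5 against 49.0 RPKM, at a log2 ratio of -1.25 (-1.40 to -1.11). With halved counts the interval was -1.46 to -1.05, so it lay past 2-fold under both readings. The row covers 528 bases at chr3:96239749-96240276 on the minus strand. Hist3h2a, the H2A gene of the small chromosome 11 cluster, held 543 against 664 counts (log2 ratio -0.55, interval -0.72 to -0.38). The intervals of these H2A genes did not overlap. The remaining 18 H2A genes held 122 counts in the TNF-α library against 92 in the control library, a log2 ratio of 0.15 with an interval from -0.25 to 0.55. Over all 20 H2A genes the sum was 1243 against 1909 counts (log2 ratio -0.88, interval -0.98 to -0.77), and without Hist2h2aa2 it was 665 against 756 (log2 ratio -0.44, interval -0.60 to -0.29).

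The H2B genes, which encode the partner of H2A in the nucleosome's dimers, were led by Hist1h2bc with 590 against 780 counts. Its log2 ratio was -0.66 (-0.82 to -0.51), close to that of Hist1h1c. Hist2h2be held 133 against 140 counts, at a log2 ratio of -0.33 and an interval of -0.69 to 0.02, so a difference was not detectable at this depth. The other 17 H2B genes held 114 against 138 counts in sum (log2 ratio -0.54, interval -0.91 to -0.17). Together the 19 H2B genes held 837 against 1058 counts, a log2 ratio of -0.60.

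H3 and H4, which form the tetramer at the core of the nucleosome, had almost no counts. The 12 H3 genes summed to 32 counts in the TNF-α library and 49 in the control library, and the 13 H4 genes to 47 and 79. No H3 gene exceeded Hist2h3c1, at 12 against 16 counts (log2 ratio -0.59, interval -1.89 to 0.50). The most counted H4 gene was Hist1h4i, at 18 against 24 counts (log2 ratio -0.62, interval -1.64 to 0.27). A nucleosome holds H3 and H4 in the same amounts as H2A and H2B, so these counts do not follow the proteins' proportions. The log2 ratio of the summed counts was -0.87 for H3 (-1.56 to -0.20) and -1.01 for H4 (-1.56 to -0.47). With halved counts the H3 interval reached 0.09, and so held 0.

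**Figure D2:**
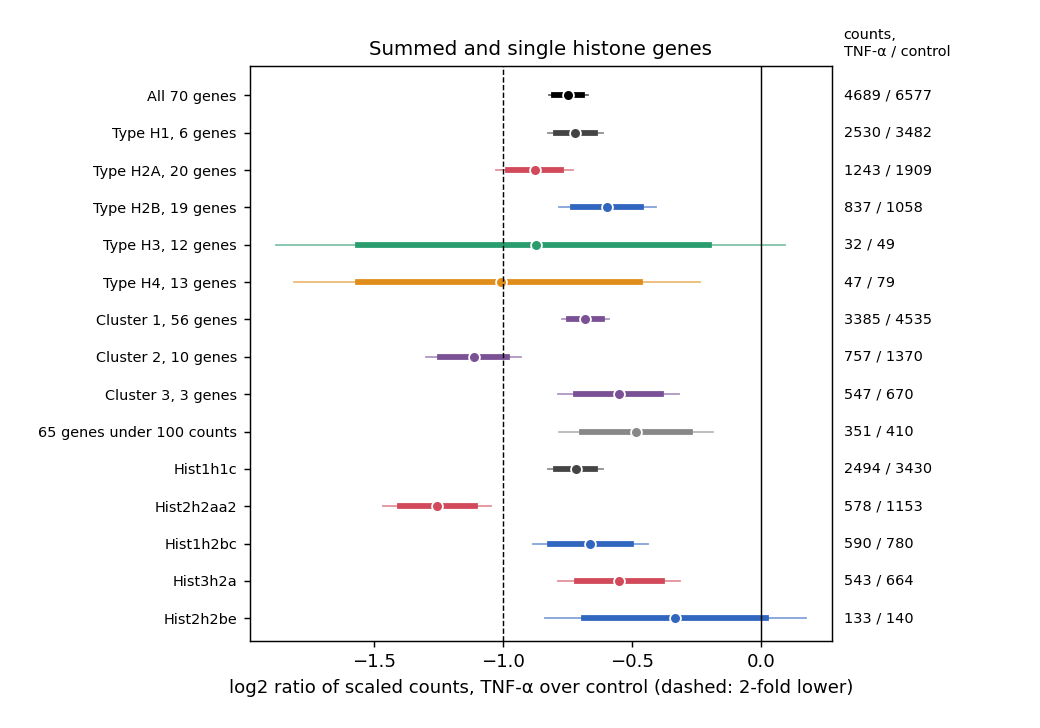
log2 ratio of TMM-scaled counts, TNF-α over control (x axis), for sums over types and clusters and for the 5 genes with at least 100 counts, without a prior count; thick lines are 95% Clopper-Pearson intervals and thin lines the same with halved counts. The summed values lie between -1.12 for cluster 2 and -0.48 for the 65 genes under 100 counts, and the interval of Hist2h2be alone among thick lines reaches past 0, to 0.02.

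The members lie in 4 clusters. Cluster 1, on chromosome 13, has 56 of the genes and covers every type. Its counts were 3385 in the TNF-α library against 4535 in the control library (log2 ratio -0.68, interval -0.75 to -0.62). Cluster 2, on chromosome 3, has 10 genes and lacks H1. It held 757 against 1370 counts, a log2 ratio of -1.12 (-1.25 to -0.99). That value came largely from Hist2h2aa2: the other 9 genes held 179 against 217 counts, at -0.54 (-0.83 to -0.25). Cluster 3, on chromosome 11, has 3 rows. Hist3h2a supplied nearly all its counts, Hist3h2ba held 4 against 6 and the pseudogene Hist3h2bb-ps was at 0 in both libraries. Cluster 4 is the single gene Hist4h4 on chromosome 6, with 0 counts in the TNF-α library and 2 in the control library.

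Outside the 5 main genes the members were at the edge of detection. The other 65 genes held 351 counts in the TNF-α library and 410 in the control library, at a log2 ratio of -0.48 (-0.69 to -0.27). None had more than 37 counts in the TNF-α library or 44 in the control library, and the medians were 2 and 3 counts. There were 7 genes at 0 in both libraries, 18 at 0 in the TNF-α library and 11 at 0 in the control library. A count of 0 allows up to 3 counts, which is 0.0562 CPM in the TNF-α library and 0.0673 CPM in the control library. The genes at 0 in the TNF-α library had at most 6 counts in the control library, and those at 0 in the control library at most 8 in the TNF-α library, so single genes here cannot be ranked. Genes known from male germ cells were among them: Hist1h1t held 4 against 2 counts, and Hist1h2aa and Hist1h2ba were at 0 in both libraries.

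Counted gene by gene, 29 of the 70 members had at least 10 counts over both libraries. Of these, 2 were over 2-fold higher in the TNF-α library and 4 over 2-fold lower, where 8.56% of the 20771 genes with as many counts were higher and 6.62% lower. The shares of the histone genes were 6.90% and 13.8%, and 3 of the 4 lower genes had under 100 counts. Among all genes with 10 to 99 counts, 18.7% were over 2-fold higher and 14.7% lower, so ratios past 2-fold were common at such counts. The direction was less even than the calls: 22 of the 29 log2 ratios were below 0 and 7 above, with a median of -0.55. Over all genes tested the median was 0.0038 and 50.6% were above 0.

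The genes past 2-fold were mostly of low count, and are named here after their values were seen. On the higher side, Hist1h2ab held 25 against 6 counts (log2 ratio 1.54, interval 0.48 to 3.37) and Hist1h2af 8 against 2 (1.15, interval -0.58 to 5.01). Both encode H2A. On the lower side were Hist2h2aa2 and the H4 gene Hist2h4, which held 4 against 24 counts (log2 ratio -2.32, interval -4.83 to -1.30). Hist1h4j and the H2B gene Hist1h2bq each held 2 against 10 counts (log2 ratio -1.76, interval -5.81 to -0.35). With halved counts the intervals of Hist1h2ab, Hist1h4j and Hist1h2bq each held 0, while that of Hist2h4 ended at -0.68.

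Several copies are so alike that reads cannot be placed with certainty between them. Of 67 members with a coding sequence in GENCODE M21, 44 encode a protein identical to that of another member, in 8 groups. All 13 H4 genes encode a single protein of 103 residues, so their sum of 47 against 79 counts is the reading for that protein. A group of 9 H2A genes of cluster 1, with Hist1h2ab among them, held 56 against 39 counts, and a group of 7 H3 genes held 14 against 27. Hist2h2aa1 and Hist2h2aa2 have identical coding sequences of 390 bases, and all stretches of 100 bases in the Hist2h2aa2 transcript recur in another histone transcript. Yet Hist2h2aa1 held 14 against 15 counts beside the 578 against 1153 of Hist2h2aa2. How reads with several matching places were assigned is not given in the sources used here, so the pair is best read as a sum: 592 against 1168 counts, at a log2 ratio of -1.24 (-1.39 to -1.10). Hist3h2a and Hist2h2be shared no such stretch with another member, and Hist1h1c shared 5.07% of its stretches. Hist1h2bc shared 25.4%, and encodes the same protein as Hist1h2bg and Hist1h2be, with which it summed to 660 against 868 counts.

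Overlapping rows also share reads. Exons of 25 members overlap another row of the table, 23 of them a row on the opposite strand. The Hist2h2aa2 row lies wholly within Gm20632, a plus-strand row at chr3:96239393-96241819 that held 658 against 1283 counts. A row of 138 bases on that strand, AC125099.2, lies wholly inside both and held 312 against 609. Reads there could not have been counted for AC125099.2 without also lying in Gm20632, so reads stand in more than 1 row. Which strand they came from is not given in the sources used here, and Hist2h2aa2 and Gm20632 cannot be told apart. Hist3h2a likewise shares 708 bases with Trim17 (436 against 509 counts) on its own strand. The 25 overlapping members held 1298 against 1979 counts (log2 ratio -0.87), and the 45 without overlap 3391 against 4598 (log2 ratio -0.70, interval -0.76 to -0.63), so a lower sum was also present in rows that share no exon. All 20 H2A rows overlap another, so this holds for the other types alone. Hist1h1c, Hist1h2bc and Hist2h2be are among the rows without overlap.

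**Figure D3:**
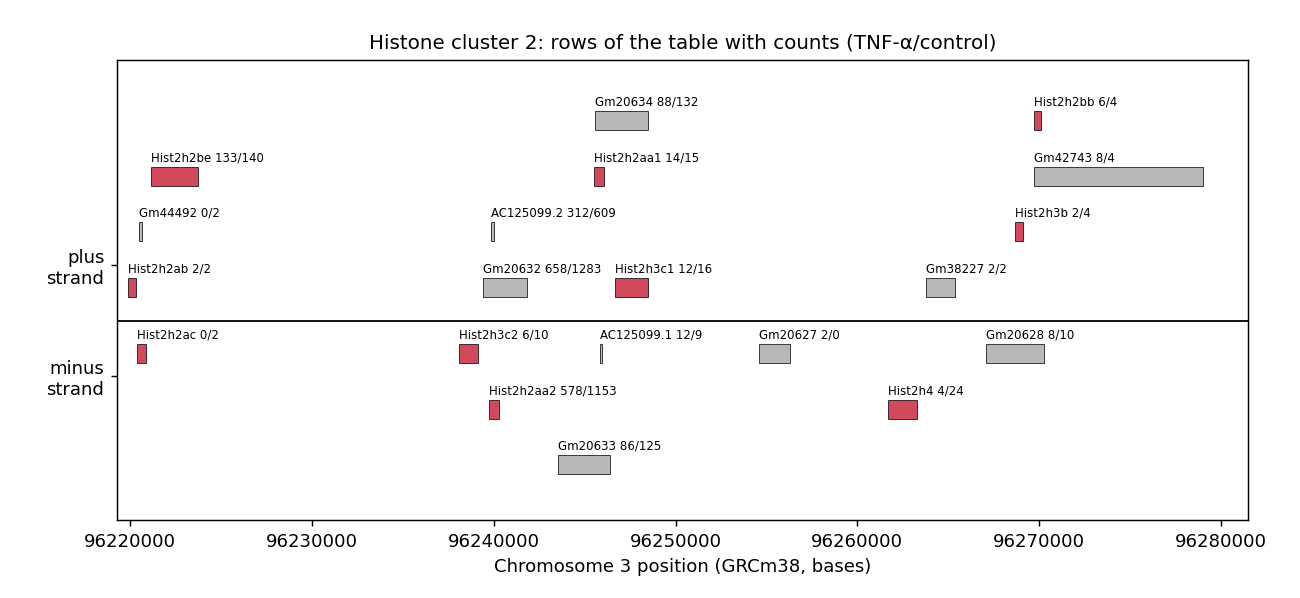
Map of histone cluster 2 on chromosome 3 (x axis, GRCm38 position in bases), with rows of the plus strand above the line and rows of the minus strand below it; boxes run to scale from the start to the end of each row, histone genes in red and other rows in grey, with counts in the TNF-α and the control library. Hist2h2aa2 (578/1153) lies wholly within Gm20632 (658/1283), and AC125099.2 (312/609) lies wholly within both, while Hist2h2aa1 nearby held 14/15.

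The stem-loop was searched for as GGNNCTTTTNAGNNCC, where N is any base, on the sense strand of the 100 bases after the stop codon. Of the 52 members with annotated sequence there, 44 had it (84.6%), against 3 of 21046 other coding genes (0.0143%). Those without it include Hist2h3b and Hist1h1a, with only 37 and 48 bases to search. It began 21 to 58 bases after the stop codon, with a median of 31. Members with the commonest form, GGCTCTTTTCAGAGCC, numbered 26 and included H1, H2A, H2B and H3 genes, while the forms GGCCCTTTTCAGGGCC in 7 genes, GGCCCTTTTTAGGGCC in 2 and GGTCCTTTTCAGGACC in 2 were found in H4 genes. In every form the first bases pair with the last, which makes the stem. The stem-loops of the leading H1 and H2A genes and of the H4 gene Hist2h4 are printed 5′ to 3′, with the matched bases in capitals and 5 flanking bases in lower case. In the order printed, the capitals lie at chr13:23739512-23739527 on the plus strand, chr3:96239784-96239799 on the minus strand, chr11:58955172-58955187 on the plus strand and chr3:96262939-96262954 on the minus strand, in the 3′ UTR of each gene (GRCm38).
Hist1h1c: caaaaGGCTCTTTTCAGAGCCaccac
Hist2h2aa2: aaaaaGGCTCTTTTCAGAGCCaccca
Hist3h2a: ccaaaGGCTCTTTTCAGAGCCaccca
Hist2h4: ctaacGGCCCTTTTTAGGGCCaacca

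The annotated ends differ among the main genes. The Hist2h2aa2 row stops 35 bases past the stem-loop, whereas the Hist1h1c row goes on for 840 bases and the Hist3h2a row for 1643. Hist1h2bc is annotated with its first exon ending 9 bases after the stop codon and spliced to an exon starting at chr13:23692176. No stem-loop was found in this annotated transcript, and the genomic bases past the first exon were not searched. Hist2h2be continues for 2192 bases after the stop codon in a single exon, in which the searched letters do not occur. Members with a stem-loop and under 100 deposited bases past it, 31 in number, summed to 744 against 1323 counts, a log2 ratio of -1.09 (-1.22 to -0.96). The 13 members with at least 100 bases past it summed to 3122 against 4239 counts, at -0.70 (-0.77 to -0.63). The first sum is mostly Hist2h2aa2 and the second mostly Hist1h1c, so these are differences between those genes. By length, the 10 members with over 1000 exon bases held 69.0% of the TNF-α histone counts and 66.1% of the control histone counts. The labels name an mRNA library kit and total RNA, and whether poly(A) RNA was selected is not given in the sources used here.

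RNA of other kinds without a poly(A) tail was listed for comparison. Of a list of 21 such genes, 13 had at least 10 counts, with a median log2 ratio of 0.23. That median depends on the filter, since the 5 genes with at least 100 counts had a median of -0.10. There were 6 over 2-fold higher in the TNF-α library, none of which had more than 29 counts over both libraries, and none over 2-fold lower. That is 46.2% of the 13, against 8.56% of all 20771 genes tested and 18.7% of those with 10 to 99 counts. Each of the 6 had under 10 counts in the control library and passed the filter through the TNF-α library, where it was high. Their share is therefore no measure of enrichment. The 13 include the 5 genes with at least 100 counts, none of which was past 2-fold. Among genes with at least 100 counts the range ran from Malat1, a nuclear RNA, at -0.51 to Rpph1, the RNA of RNase P, at 0.02. The sum of the list, 95252 against 111151 counts (log2 ratio -0.48), was mostly Malat1, at 89503 against 106123. Without Malat1, Rn7s1 and Rn7s2 the other 18 genes summed to 625 against 449 counts (log2 ratio 0.22, interval 0.04 to 0.40), so the sign of the sum depends on these abundant RNAs. Among those 18, the 9 Scarna and Snor genes held 92 against 12 counts (log2 ratio 2.68, interval 1.81 to 3.68). They were grouped after their values were seen, and the interval does not allow for that choice. Of their counts, Snora73b held 25 against 1 and Snora73a 23 against 6. The part of RNA capture in the histone values was not tested.

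The promoters were compared in the RefSeq table for GRCm38.p6, which has 63 windows for 62 of the members, each from 250 bases before to 50 bases after a gene start. Both strands were searched for TATAAA (the TATA box), CCAAT and ATTTGCAT (the octamer, bound by OCT1, the product of Pou2f1). Matches of different motifs may share bases. TATAAA was in 55.6% of the histone windows and 13.6% of all 32851 windows, and CCAAT in 85.7% against 37.4%. The octamer was in 22.2% against 1.74%. CCAAT split the types: each H1, H2A, H2B and H3 window had it, but 3 of 12 H4 windows did. The octamer was in 7 of 18 H2A and 7 of 17 H2B windows and in none of the H1, H3 or H4 windows. These are matches of letters, not measured sites.

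H2A and H2B genes were often arranged head to head. There were 14 such pairs, with 172 to 305 bases between the genes, and in some of them the mates had very unequal counts. Hist1h2bc held 590 against 780 counts, while its H2A neighbour Hist1h2ac, 274 bases away on the other strand, held 0 against 2. The same was seen for Hist2h2be, at 133 against 140, and its neighbour Hist2h2ac, at 0 against 2, which lie 238 bases apart. The windows of the member with the most counts, of the member past 2-fold with at least 100 counts and of the gene that shares its upstream bases with Hist1h2bc are printed to show where these letters fall. They lie at chr13:23738557-23738856 on the plus strand, chr3:96240325-96240624 on the minus strand and chr13:23683910-23684209 on the minus strand (GRCm38.p6, 5′ to 3′), with every motif match in capitals. The Hist1h2ac window, which reaches the first bases of the Hist1h2bc row on the other strand, holds all 3 motifs, and the other windows hold CCAAT alone. For Hist2h2aa2 this depends on the start used: its row begins 98 bases after the RefSeq start. The last 219 bases of its window recur in the Hist2h2aa1 window, which goes on to TATAAA 1 base later.
Hist1h1c promoter: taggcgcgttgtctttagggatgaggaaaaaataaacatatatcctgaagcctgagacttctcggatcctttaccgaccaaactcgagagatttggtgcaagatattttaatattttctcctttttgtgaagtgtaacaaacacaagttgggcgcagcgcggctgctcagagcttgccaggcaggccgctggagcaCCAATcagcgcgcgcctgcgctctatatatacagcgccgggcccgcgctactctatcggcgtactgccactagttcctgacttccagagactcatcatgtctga
Hist2h2aa2 promoter: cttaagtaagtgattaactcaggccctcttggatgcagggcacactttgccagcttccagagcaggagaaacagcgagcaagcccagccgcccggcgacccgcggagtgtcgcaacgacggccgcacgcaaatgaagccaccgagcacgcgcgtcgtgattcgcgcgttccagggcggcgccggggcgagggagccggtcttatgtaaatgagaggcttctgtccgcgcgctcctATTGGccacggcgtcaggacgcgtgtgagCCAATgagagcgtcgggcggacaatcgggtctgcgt
Hist1h2ac promoter: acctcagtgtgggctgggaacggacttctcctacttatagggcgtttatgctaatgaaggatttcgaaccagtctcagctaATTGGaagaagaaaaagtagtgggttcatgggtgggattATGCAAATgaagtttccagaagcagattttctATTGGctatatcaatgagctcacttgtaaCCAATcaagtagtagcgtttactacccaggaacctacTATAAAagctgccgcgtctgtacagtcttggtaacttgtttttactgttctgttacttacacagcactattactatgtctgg

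Genes that make and process histone mRNA lay on both sides of 0. Of a list of 26 names, 25 were found and had at least 10 counts. Their median log2 ratio was 0.17, with 16 above 0 and none past 2-fold in either direction. Slbp, whose product binds the stem-loop, held 5726 against 3692 counts (log2 ratio 0.37, interval 0.31 to 0.43). The histone gene activators Npat (1862 against 1263 counts, log2 ratio 0.30) and Casp8ap2 (4350 against 2875 counts, 0.34) were also higher, while Hinfp, an activator of H4 genes, was at -0.16 (-0.28 to -0.04). Lsm10 and Lsm11 encode parts of the U7 particle that cuts histone pre-mRNA. Their log2 ratios were -0.05 (-0.53 to 0.43) and 0.07 (-0.20 to 0.34), differences not detectable at this depth. The range ran from Upf1, which takes part in histone mRNA decay, at -0.51 to the cyclin gene Ccne1 at 0.92.

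Histone variant genes outside the replication-dependent set held more counts in sum than the replication-dependent genes. When in the cell cycle these variants are made, and how their mRNAs end, was not tested. The 12 variant genes held 1554 CPM in the TNF-α library and 1336 CPM in the control library, with a median log2 ratio of 0.22 and 9 above 0. H3f3b, which encodes the replacement histone H3.3, held 244 against 210 RPKM (log2 ratio 0.22) and H3f3a, a gene for the same protein, 31.5 against 35.3 RPKM (-0.16). The linker variant gene H1f0 reached 112 against 93.3 RPKM (log2 ratio 0.26), above Hist1h1c at 29.96 against 49.3. Some other variants lay below Hist1h1c in both libraries. Among these were H2afx at 7.92 against 8.82 RPKM, H1fx at 3.50 against 3.01 and Cenpa at 3.17 against 2.17. H2afz, at 50.7 against 25.6 RPKM, lay above Hist1h1c in the TNF-α library alone, as did H3f3a, H2afy and H2afj. The extremes of the list were H2afj at -0.18 and H2afz at 0.98. H2afz, for the variant H2A.Z found at promoters, held 4801 against 2026 counts (interval 0.91 to 1.06). Cenpa, the histone of centromeres, was at 0.54 (0.39 to 0.69), and H2afx, which is phosphorylated at DNA breaks, at -0.15 (-0.33 to 0.02).

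**Figure D4:**
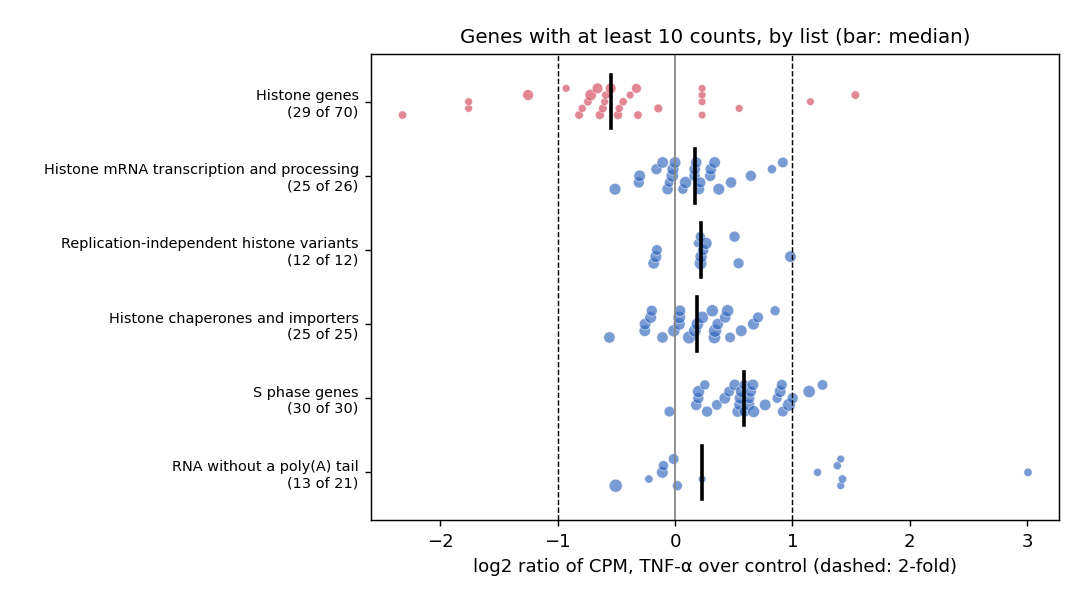
log2 ratio of CPM with a prior count of 2, TNF-α over control (x axis), for each gene with at least 10 counts over both libraries, by list (y axis, with the number plotted of the number listed); black bars are medians, the grey line is the median of all 20771 genes tested, dashed lines mark 2-fold, and larger points have more counts. The histone genes have a median of -0.55 and the other lists medians from 0.17 to 0.59.

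Histone chaperones, which carry new histones to DNA, were a list of 25 genes with a median log2 ratio of 0.19. There were 18 above 0, and the extremes were Ipo4, an importer of histones, at -0.56 and Asf1b at 0.85. Chaf1a and Chaf1b encode subunits of CAF-1, which deposits H3 and H4 behind the replication fork. Chaf1a held 5887 against 3093 counts (log2 ratio 0.67, interval 0.61 to 0.73) and Chaf1b 973 against 497 (0.71, interval 0.55 to 0.87), while the third subunit gene, Rbbp4, was at 0.36 (0.29 to 0.44). Asf1a was at 0.47 (0.27 to 0.67) and Nasp, which holds soluble H3 and H4, at 0.45 (0.41 to 0.48).

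S phase genes stood on the other side. Of 30, 29 had a log2 ratio above 0, with a median of 0.59, and Top2a, Tk1 and E2f1 were over 2-fold higher. These 3 calls are 10% of the list, near the 8.56% of all genes tested, and since Tk1 lay at the threshold, 2 genes passed under another scaling. Pcna, the sliding clamp of the polymerase, held 3909 against 2432 counts (log2 ratio 0.42) and Mki67, a marker of cycling cells, 59721 against 25452 (log2 ratio 0.97). The cyclins that lead into and through S phase were at 0.92 for Ccne1, 0.65 for Ccne2 and 0.51 for Ccna2, and their partner Cdk2 at 0.18. The extremes were E2f2 at -0.05 (-0.22 to 0.12) and E2f1 at 1.26 (1.05 to 1.49). Cdk2, Ccne1 and Ccne2 are also on the list of histone mRNA genes, and Mcm2, at 0.56, is also on that of the chaperones, so these lists are not independent. Summed counts of the S phase list were 162343 against 79714, a log2 ratio of 0.77, beside -0.75 for the histone genes in the same libraries. Much of the S phase sum was Mki67 and Top2a, the latter at 23430 against 8858 counts. The summed ratio is therefore weighted to these genes, and the median of 0.59 describes the list better.

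Markers were checked for the cells in these libraries. Basal markers held 10497 CPM in the TNF-α library and 11472 CPM in the control library, with Krt14 the most abundant of the 6. Their log2 ratios went both ways, with Oxtr at -1.19 and Krt5 at 0.16. The 8 luminal markers, led by Krt8, were also present, at 3392 against 4119 CPM. Leukocyte markers held 6.54 against 8.23 CPM over 8 genes, with Cd3e at 0 in both libraries and Lyz2 the most abundant. The 5 fibroblast markers held 485 against 498 CPM, led by Col1a2, and the 3 endothelial markers 6.24 against 6.57, led by Cdh5 in the TNF-α library and Pecam1 in the control library. Testis germ cell markers held 0.656 against 1.01 CPM over 5 genes, with Prm1, Prm2 and Tnp1 at 0 in both libraries. Sums hide differences between single markers. The luminal sum was lower in the TNF-α library (log2 ratio -0.28), with Pgr at -1.54, Esr1 at -1.48, Kit at -0.95 and Krt19 at -0.84, but Epcam at 0.29. Of the fibroblast markers, Dcn was at 1.39 and Col3a1 at -0.66. The part of cell makeup in the histone values was not tested.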

How the data were processed

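RNA of sorted mammary basal cells, grown in 3D with or without TNF-α, was sequenced as 1 library per condition. The authors deposited a table of raw counts per gene with exon coordinates, summed exon length and strand (GRCm38). The series text calls the assay a microarray, but the deposited values are whole-number counts. Aligner, counter, strand setting and the treatment of reads with several matches are not given in the sources used here. Members and gene lists were chosen with earlier results of these data known.

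Library sizes were scaled with TMM in edgeR 4.0.16 (R 4.3.3). Log2 ratios of CPM used a prior count of 2. Genes with at least 10 counts over both libraries, which is 0.225 CPM of the control total and 0.187 CPM of the TNF-α total, were tested against a fold of 2. Summed counts and intervals used no prior. Intervals are 95% Clopper-Pearson intervals of the TNF-α share of counts (scipy 1.17.1). The ratio and interval were tested on simulated counts.

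Named genes were, per histone type, the member with the most counts; the extremes among members with at least 100 counts; members past 2-fold with at least 100 counts; all of clusters 3 and 4; 3 testis genes; and, per list, fixed genes and the extremes among genes with at least 100 counts. Other named genes were chosen after their values were seen. The sums by bases past the stem-loop, without Malat1, Rn7s1 and Rn7s2, and of the Scarna and Snor genes were also added then. So were shared stretches of 100 bases and head-to-head pairs up to 500 bases apart. Stem-loops and proteins were read from GENCODE M21 transcripts by gene name, since no protein table was used here. The 70 members matched RefSeq genes by symbol and position. Other scalings, priors, filters and halved counts were tried.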

Additional observations from a re-analysis of the deposited data

How the results depend on the processing

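No paired analysis was possible because there was 1 library with TNF-α and 1 without. Of 356 repeats under other settings, 342 stayed within the counting interval, the 95% interval of a list's median or 1.5 times the count, and none changed sign for a value past 2-fold. Halving both counts cannot change a summed ratio, and the other scalings shift all ratios by nearly the same small amount. Many of these repeats could therefore hardly differ, and their number does not measure robustness. Total counts, DESeq2 1.42.0 size factors and upper quartile scaling moved the summed log2 ratio of all histone genes only between -0.76 and -0.75. Without rows that overlap another gene, the log2 ratio was -0.54 for cluster 2 (3 genes left) and -0.84 for cluster 3 (2 genes left), since Hist2h2aa2 and Hist3h2a are then absent. The cluster 3 value is then that of Hist3h2ba alone, at 4 against 6 counts (interval -3.11 to 1.23), since Hist3h2bb-ps had no counts. Leaving out single genes was an alternative chosen after seeing the data. Without Hist2h2aa2 the log2 ratio was -0.66 for all histone genes, -0.44 for H2A and -0.54 for cluster 2, and without Hist1h1c it was -0.57 for cluster 1. With no filter beyond 1 count, 5 of 63 histone genes were over 2-fold higher (7.94%) and 15 lower (23.8%), against 9.88% and 11.1% of all genes. With at least 100 counts, 0 of 5 were higher and 1 lower, against 4.77% and 3.59% of all genes. With at least 1 CPM the histone numbers were the same, against 5.36% and 4.22% of all genes. A prior count of 5 left 1 higher, but the share of all genes was not counted under that prior. At a fold of 1.5, 14 of 29 were lower (48.3%) and 2 higher (6.90%), against 13.7% and 15.5% of all genes. The median of RNA without a poly(A) tail, 0.23, changed sign to -0.10 with at least 100 counts or at least 1 CPM (5 genes left), and was 0.94 with no filter. Depth limits single genes: 41 of the 70 members had under 10 counts, and summed to 73 counts in the TNF-α library and 77 in the control library.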

Other observations

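Gene models limited what could be counted. The deposited exon length equals that of GENCODE M21 for 47 of the 70 members, and for 20 the M21 model is longer. Hist1h1d has 744 deposited bases against 7425 in M21, and Hist1h2ac 476 against 2482. Reads in the added bases were not counted for these genes. The 20 members summed to 739 counts in the TNF-α library and 970 in the control library (log2 ratio -0.65).

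Pseudogenes were included by the choice of members. Hist1h2al, a processed pseudogene at chr13:51202688-51203065 on the chromosome of cluster 1, held 28 against 26 counts. The 3 pseudogenes summed to 34 against 30 counts, a log2 ratio of -0.08 (-0.83 to 0.68).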
